A study of Arabidopsis thaliana with 9 samples.

Results

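The plastid genome of Arabidopsis thaliana carries, beside the genes for photosystem, cytochrome b6/f, ATP synthase and Rubisco subunits, a second set of protein genes, and this second set is described here. Members were all probe sets that the platform annotation pairs with exactly 1 gene bearing a plastid locus tag (ArthCp), except those with symbols starting psa, psb, pet or atp and rbcL. The rule found 36 genes, each with 1 probe set, among 22746 probe sets in the table, of which 13513 were paired with 1 gene. They comprised 10 ndh genes, 4 rpo genes, 8 rps genes, 7 rpl genes, 2 ycf genes and 5 single genes (accD, ccsA, cemA, clpP and matK). The plastid genes ndhB, rpl2, rpl23, rps7, rps12, ycf1 and ycf2 shared their probe sets with other genes and were not analysed here. The remaining 33 plastid-encoded photosynthesis genes served for comparison.

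RNA was measured in whole dark-grown seedlings of the Col-0 ecotype, 4 days old, on 9 single-colour Affymetrix arrays with 3 biological replicates per genotype. The genotypes were cop1-4 BBX22-GFPox, which carries the cop1-4 mutation together with BBX22-GFPox, taken to be a BBX22-GFP overexpression construct, the cop1-4 mutant alone, and wild type. All 3 groups were kept in darkness on sucrose-containing medium. COP1 is the ubiquitin ligase that holds back seedling greening and opening in the dark, cop1-4 is a partial loss-of-function allele, and BBX22 is a B-box protein that acts in favour of light responses. The labels do not give the promoter of the construct or the number of transgenic lines, and the genotypes were not checked here against the transcripts of COP1, BBX22 or HY5.

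Plastid genes are transcribed by 2 kinds of RNA polymerase. One is the bacterial-type enzyme, whose core subunits are encoded by the plastid rpo genes and whose sigma factors come from the nucleus. The others are nuclear-encoded phage-type enzymes, which transcribe, among others, the rpo genes and accD. The products of the genes described here build the plastid ribosome (rps and rpl), the NADH dehydrogenase-like complex that returns electrons to the plastoquinone pool (ndh), the core polymerase (rpo), photosystem I assembly factors (ycf3 and ycf4) and enzymes of fatty acid synthesis, protein turnover, cytochrome assembly and intron splicing. Many of these genes lie in clusters that are transcribed together, so they are not independent of each other.

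The deposited values are probe set signals in array units, and the 2% trimmed mean of an array lay between 494 and 496. Signals are compared between genotypes for 1 probe set at a time, since levels of different probe sets cannot be compared. Changes are differences of log2(signal + 24.5) between genotype means, tested with limma over the 15922 probe sets that passed a filter on low values. All 36 members passed. A gene rose or fell where its Benjamini-Hochberg adjusted p, taken over all 15922 probe sets, was under 0.05. In all 3 genotypes the replicate 1 array differed from the other two. Values from replicate 1 by itself, with 1 array per genotype and so no test, and from the later 2 replicates by themselves therefore accompany those over all arrays. Where treating the replicate number as a block altered a call, that result is added. Standard Affymetrix labelling primes from poly(A) tails, which most plastid transcripts lack in stable form, and the part of tail length in these values was not tested.

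The protochlorophyllide oxidoreductase gene PORB was taken here as a marker of etiolated seedlings, and whether it is particular to that state was not tested. PORB read 1109, 678 and 558 units in cop1-4 BBX22-GFPox, 1329, 2157 and 2029 units in cop1-4 and 8669, 13371 and 15508 units in wild type. It was lowered in both cop1-4 genotypes against wild type (log2 changes of −3.98 and −2.74). The other etiolated marker and the cotyledon and dry seed markers had no probe set of 1 gene here. Of 3 root hair markers 2 were measured, and their summed signal was 100.9 to 949 in cop1-4 BBX22-GFPox, 196 to 1049 in cop1-4 and 47.0 to 610 in wild type, lowest in replicate 1 of each genotype. In cop1-4 against wild type the change was 1.21 for EXPA7 (adjusted p = 0.302, and 0.0186 with the replicate number as a block) and 0.63 for EXPA18 (0.719, and 0.0250 with the block), so both were raised in the block fit. In cop1-4 BBX22-GFPox against wild type the block called neither (0.0560 and 0.285). In whole seedlings fewer cells of a type and less RNA per cell cannot be told apart, and the part of tissue makeup in the results below was not tested.

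The first comparison asked how these genes differ between cop1-4 and wild type seedlings grown in darkness. Most lay higher in cop1-4, but few by more than the spread between arrays. The log2 change was positive for 34 of 36 members, with a median of 0.51 against −0.11 over all probe sets tested. Limma called 4 members, all raised: ndhF, ccsA, rps2 and ycf3. A further 2 members had an unadjusted p under 0.05, making 6 of 36, where 6349 of the 15922 probe sets tested had one. These 4 are 11.1% of the members, near the 11.3% of all probe sets that were raised. With the replicate block 14 members were raised (38.9%, against 19.9% of all probe sets), and with replicates 2 and 3 alone 22 were (61.1%, against 28.7%), a fit whose p-values rest on 2 arrays per genotype. No member was lowered by limma (14.5% of all probe sets were), with the block (24.6%) or with replicates 2 and 3 alone (33.6%). In 13 members (36.1%) all 3 cop1-4 arrays lay above all 3 wild type arrays, and 19.2% of all probe sets did so. No member showed the opposite order, which 25.7% of all probe sets did. By numbered pair the median change was 0.60 (replicate 1), 0.42 (replicate 2) and 0.53 (replicate 3). In all 3 numbered pairs 24 of 36 members were higher in cop1-4. So were 4502 of the 15922 probe sets tested and 26 of the 33 plastid photosynthesis genes. Among the 33 plastid photosynthesis genes 8 were raised and the median was 0.63. The count of 4 was 1 without cop1-4 replicate 2 or 3 or wild type replicate 2 or 3. It was 2 without wild type replicate 1. In these fits 6.11% to 6.97% of all probe sets were raised, against 11.3% with all arrays.

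**Figure D1:**
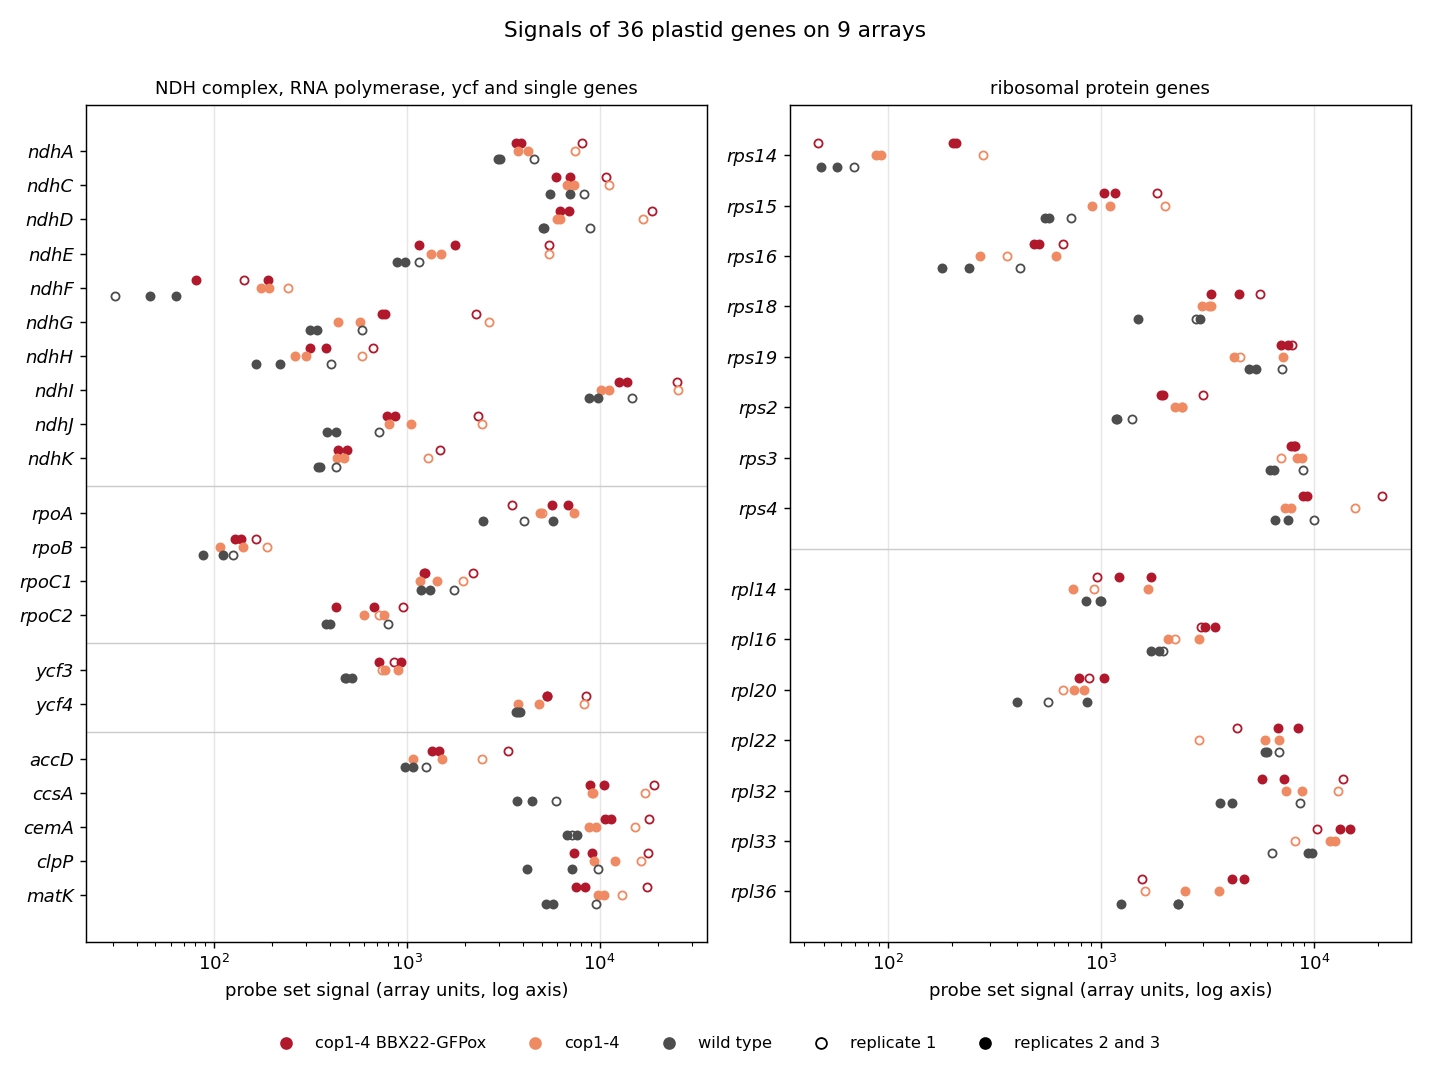
Signal of each of the 36 plastid genes on each array (array units, log axis), with 1 row per gene. Red points are cop1-4 BBX22-GFPox, orange points cop1-4 and grey points wild type, open symbols are replicate 1 and filled symbols replicates 2 and 3. The wild type points of ndhF (30.7 to 64.1) lie left of all points of the other genotypes, while open symbols of most ndh genes lie far right of the filled ones.

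The 10 ndh genes encode plastid subunits of the NADH dehydrogenase-like complex. All 10 had positive log2 changes in cop1-4 (0.26 to 1.70, median 0.62). Of them 1 was called, where 11.3% of all probe sets were raised. With the block 6 were called, where 19.9% of all probe sets were raised. Taking replicate 1 by itself the class median was 1.21, with replicates 2 and 3 it was 0.46, and without cop1-4 replicate 1 it was 0.23. The membrane arm subunit gene ndhF (ArthCp071) had signals of 143, 190.4 and 81.1 in cop1-4 BBX22-GFPox, 244, 177 and 194 in cop1-4 and 30.7, 46.6 and 64.1 in wild type. Every array of both cop1-4 genotypes lay above every wild type array. The ndhF signal averaged 205 ± 35.0 in cop1-4 and 47.1 ± 16.7 in wild type (SD, n = 3 each). It rose by 1.70 on the log2 scale (SE 0.302, adjusted p = 0.00550) and kept its call when any 1 of the 9 arrays was left out (adjusted p up to 0.0223). The wild type ndhF signals were low, not far above the added offset of 24.5 units. A filter at the 50th percentile left ndhF untested.

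Of the hydrophilic arm genes, ndhJ (ArthCp025) read 2352, 874 and 796 units in cop1-4 BBX22-GFPox, 2471, 1052 and 810.2 units in cop1-4 and 722, 386 and 429.5 units in wild type. Both cop1-4 genotypes lay above wild type on every array, with the replicate 1 arrays highest. Its log2 change in cop1-4 was 1.34 (SE 0.520, adjusted p = 0.0900, and 0.00160 with the block). The hydrophilic arm gene ndhI (ArthCp078), the brightest ndh probe set, had 25243, 13799 and 12532 units in cop1-4 BBX22-GFPox, 25603, 10153 and 11143 units in cop1-4 and 14661, 9781 and 8833 units in wild type. Wild type replicate 1 exceeded the replicate 2 and 3 arrays of the other genotypes, so the groups overlapped. The change in cop1-4 was 0.40 (adjusted p = 0.520, and 0.126 with the block). With the block ndhA, ndhE, ndhG and ndhH were also called (adjusted p from 0.0182 to 0.0467), where the fit without it gave log2 changes of 0.51, 1.13, 1.10 and 0.51 and adjusted p-values from 0.226 to 0.394. For ndhE and ndhG most of the difference lay in replicate 1 (2.21 and 2.14, against 0.59 and 0.58 in replicates 2 and 3). Not called by either fit were ndhC, ndhD, ndhI and ndhK, at 0.26 to 0.74.

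The rpo genes encode the core subunits of the bacterial-type polymerase. None of the 4 was called in cop1-4, with or without the block, and none had an unadjusted p under 0.05. Their median change was 0.39, with 0.23 from replicate 1 and 0.46 from the other two, and it was 0.25 without wild type replicate 2. The alpha subunit gene rpoA (ArthCp055) had signals of 3525, 6841 and 5654 in cop1-4 BBX22-GFPox, 5019, 4932 and 7399.6 in cop1-4 and 4045, 5753 and 2477 in wild type. These ranges overlapped, and the log2 change of 0.55 had a 95% interval of −0.29 to 1.39. For rpoB (ArthCp014), which encodes the beta subunit, the values were 166, 138 and 129.7 in cop1-4 BBX22-GFPox, 189, 108 and 142 in cop1-4 and 126, 88.6 and 112 in wild type. One cop1-4 array lay below 2 of the wild type arrays, and the change was 0.34 (−0.18 to 0.86).

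The beta-prime subunit gene rpoC1 (ArthCp013) read 2196, 1249.7 and 1228 units in cop1-4 BBX22-GFPox, 1952, 1433 and 1169.7 units in cop1-4 and 1764, 1318 and 1194 units in wild type. Its groups lay on top of each other, and the log2 change was 0.08 with an interval of −0.62 to 0.77. For rpoC2 (ArthCp012), the beta-double-prime subunit gene, arrays gave 953, 675 and 431 units in cop1-4 BBX22-GFPox, 718, 598 and 767 units in cop1-4 and 799, 383 and 402 units in wild type. Wild type replicate 1 was above all 3 cop1-4 arrays, while wild type replicates 2 and 3 were below them. The change was 0.45 (−0.35 to 1.25). Replicate 1 gave −0.15 and replicates 2 and 3 gave 0.75. With replicates 2 and 3 alone, 2 arrays per genotype, rpoC2 was the only rpo gene called (adjusted p = 0.00399). That fit raised 28.7% of all probe sets.

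The 8 measured genes for proteins of the small ribosomal subunit had a median change of 0.50 in cop1-4, with 0.43 in replicate 1 and 0.57 in the other two, and 7 of them were positive. The class median was 0.22 without wild type replicate 3. Of the 8 genes 1 was called, where 11.3% of all probe sets were raised. With the block 2 were called, where 19.9% of all probe sets were raised. The gene called without the block was rps2 (ArthCp011), for ribosomal protein S2. Its signals were 2996, 1943 and 1906 in cop1-4 BBX22-GFPox, 2391, 2225 and 2400.0 in cop1-4 and 1398, 1186 and 1172 in wild type, with no overlap between either cop1-4 genotype and wild type. It averaged 2339 ± 98.5 units in cop1-4 and 1252 ± 126 units in wild type (SD, n = 3 each), and it rose by 0.89 (SE 0.227, adjusted p = 0.0220). The call was lost without cop1-4 replicate 2 (0.0610) or 3 (0.0662) and without wild type replicate 2 (0.0737) or 3 (0.0762).

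Ribosomal protein gene rps15 (ArthCp081) had a larger change on a wider spread, with 1834, 1167 and 1034 units in cop1-4 BBX22-GFPox, 2002, 908 and 1104 units in cop1-4 and 723, 545 and 566 units in wild type. Again no array of either cop1-4 genotype fell among those of wild type. Its log2 change in cop1-4 was 1.03 (SE 0.335, adjusted p = 0.0520, and 0.00349 with the block). The brightest probe set of the class, rps4 (ArthCp024), read 20961, 9305 and 8859.6 units in cop1-4 BBX22-GFPox, 15613, 7296 and 7789.5 units in cop1-4 and 10031, 7593 and 6559.9 units in wild type. Its groups overlapped, and the change of 0.28 (adjusted p = 0.655) turned to −0.08 under quantile normalization. The only negative member of the class was rps19 (ArthCp063), with 7929, 7571 and 7007 units in cop1-4 BBX22-GFPox, 4516, 4198 and 7149.5 units in cop1-4 and 7058, 4935 and 5369 units in wild type. Its cop1-4 arrays spanned the wild type range, and the change was −0.15 (adjusted p = 0.691) and 0.09 in replicates 2 and 3 alone.

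The 7 genes for large subunit proteins had a class median of 0.35 in cop1-4 (0.18 in replicate 1 and 0.41 in replicates 2 and 3), and it was 0.10 without wild type replicate 2. None was called, and the block, which raised 19.9% of all probe sets, called rpl32 alone. This gene (ArthCp072) gave 13764, 7198 and 5717 units in cop1-4 BBX22-GFPox, 13036, 7378 and 8809.9 units in cop1-4 and 8559, 3637 and 4119 units in wild type. Wild type replicate 1 overlapped the higher genotypes, and the change was 0.90 (SE 0.433, adjusted p = 0.154, and 0.00707 with the block). For rpl33 (ArthCp043) the arrays read 10329, 13332 and 14799 units in cop1-4 BBX22-GFPox, 8173, 12549 and 11917 units in cop1-4 and 6336, 9371 and 9767 units in wild type. Here the replicate 1 array was the lowest of each genotype, which made cop1-4 and wild type overlap, and the change was 0.36 (adjusted p = 0.364).

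The gene rpl22 (ArthCp062) had the lowest change of all 36 members. It gave 4337, 8399.7 and 6806 units in cop1-4 BBX22-GFPox, 2890.2, 5908 and 6874 units in cop1-4 and 6818, 5905 and 6013 units in wild type. The negative change of −0.35 (adjusted p = 0.516) came from replicate 1, where the difference was −1.23, while replicates 2 and 3 gave 0.10. The signals of rpl16 (ArthCp060) were 2945, 3065 and 3414 in cop1-4 BBX22-GFPox, 2226, 2061 and 2884 in cop1-4 and 1962, 1720.3 and 1863 in wild type. The 3 genotypes did not overlap at any point, and the change in cop1-4 was 0.35 (SE 0.203, adjusted p = 0.226). The other 3 large subunit genes, rpl14, rpl20 and rpl36, lay at 0.14 to 0.37 and were not called by either fit.

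Both photosystem I assembly factor genes were higher in cop1-4, as were 44.9% of all probe sets. Of the 2 genes 1 was called, where 11.3% of all probe sets were raised. Signals of ycf3 (ArthCp023) were 857, 935 and 722 in cop1-4 BBX22-GFPox, 742, 773 and 907 in cop1-4 and 481, 520.4 and 486 in wild type. The genotypes with cop1-4 did not overlap wild type, whose 3 arrays lay close together. It averaged 807 ± 87.6 units in cop1-4 and 496 ± 21.3 units in wild type (SD, n = 3 each), and it rose by 0.67 (SE 0.184, adjusted p = 0.0284). The call was lost without cop1-4 replicate 2 or 3 or any 1 of the 3 wild type arrays (adjusted p from 0.0709 to 0.0973). The values of ycf4 (ArthCp033) were 8466, 5316 and 5319 units in cop1-4 BBX22-GFPox, 8265, 3784 and 4830.5 units in cop1-4 and 3763, 3697 and 3848 units in wild type. One cop1-4 array lay between the wild type arrays, and the change was 0.50 (adjusted p = 0.279), of which replicate 1 gave 1.13 and the other two 0.18.

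The 5 single genes had a class median of 0.74 in cop1-4 (0.93 in replicate 1 and 0.88 in replicates 2 and 3). The order of the classes by median changed between settings, with ndh above the single genes under quantile normalization (0.72 against 0.55) and lowest of all without cop1-4 replicate 1 (0.23). Of the single genes 1 was called, where 11.3% of all probe sets were raised. With the block 4 were called, where 19.9% of all probe sets were raised. For ccsA (ArthCp073), whose product acts in heme attachment to c-type cytochromes, the signals were 19158, 8965 and 10473 in cop1-4 BBX22-GFPox, 17205, 9123 and 9284 in cop1-4 and 5974, 3745 and 4441 in wild type. No array of either cop1-4 genotype overlapped wild type. It averaged 11871 ± 4620.5 units in cop1-4 and 4720.2 ± 1140.4 units in wild type (SD, n = 3 each), and it rose by 1.29 (SE 0.372, adjusted p = 0.0347). This call held only without cop1-4 BBX22-GFPox replicate 1 (0.0175) or 2 (0.0431), and leaving out any 1 of the other 7 arrays gave an adjusted p from 0.0514 to 0.113. It was also lost with no filter on low values (0.0526).

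The proteolytic Clp protease subunit gene clpP (ArthCp048) had 17735, 7329 and 9164 units in cop1-4 BBX22-GFPox, 16329, 12030.0 and 9392 units in cop1-4 and 9857, 7156 and 4216 units in wild type. Wild type replicate 1 overlapped both other genotypes, and the change in cop1-4 was 0.88 (adjusted p = 0.156, and 0.0171 with the block). Signals of matK (ArthCp003), which encodes an intron maturase, were 17622, 7569 and 8438 in cop1-4 BBX22-GFPox, 13058, 10549.5 and 9786 in cop1-4 and 9563, 5739 and 5275 in wild type. All cop1-4 arrays exceeded wild type, the lowest by a narrow margin, and the change was 0.74 (adjusted p = 0.169, and 0.0205 with the block).

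The envelope membrane protein gene cemA (ArthCp034) read 18033, 10623 and 11495 units in cop1-4 BBX22-GFPox, 15165, 8851 and 9583 units in cop1-4 and 7231, 6809 and 7607 units in wild type. It did not overlap wild type in either genotype, and the change in cop1-4 was 0.59 (adjusted p = 0.159, and 0.0462 with the block). For accD (ArthCp031), the gene of the plastid-encoded acetyl-CoA carboxylase subunit of fatty acid synthesis, the arrays gave 3341, 1359 and 1477 units in cop1-4 BBX22-GFPox, 2446, 1073 and 1518 units in cop1-4 and 1268, 986 and 1084 units in wild type. One cop1-4 array fell among the wild type arrays, and the change of 0.51 was not called by either fit (adjusted p = 0.374, and 0.0956 with the block).

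**Figure D2:**
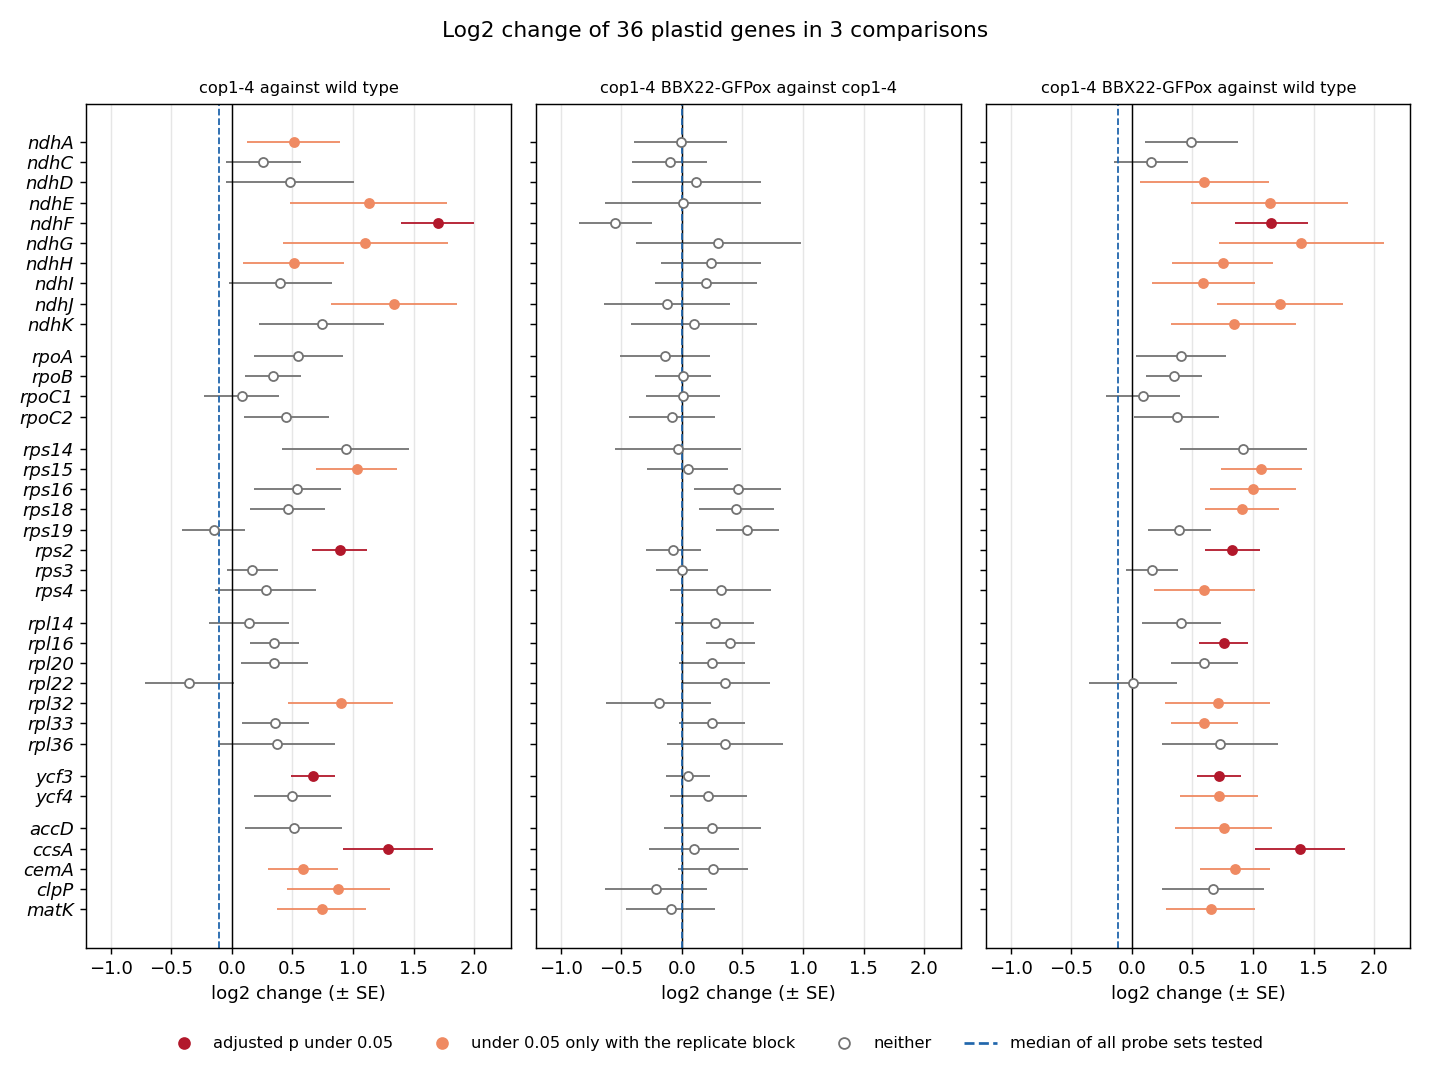
Log2 change with its standard error for each of the 36 genes in the 3 comparisons, 1 panel each. Red points have an adjusted p under 0.05, orange points only with the replicate block and open points neither, and the dashed line is the median of all probe sets tested. The left panel holds 4 red points and the right panel 5, while the middle panel has none and its points lie between −0.55 and 0.54.

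Nuclear partner genes were taken from 8 lists with 76 genes, of which 9 had a probe set of 1 gene. Among the lists was that of the phage-type polymerases, which are enzymes separate from the one built by the rpo products. In cop1-4 5 of the 9 rose and none fell, where 11.3% of all probe sets rose and 14.5% fell, and the block raised 8, where it raised 19.9% of all probe sets. NdhN and NdhL, nuclear subunits of the NADH dehydrogenase-like complex, rose by 2.10 (adjusted p = 0.0258) and 1.75 (0.0370), while a further subunit gene, NdhS, stood at 0.49 (0.639). The NdhN signal averaged 1413 ± 1094 units in cop1-4 and 266 ± 84.6 units in wild type (SD, n = 3 each), and replicate 1 gave a difference of 3.81 where the other two gave 1.25. The Clp protease subunit gene CLPP4 stood at 0.71 (adjusted p = 0.150, and 0.0409 with the block). CcdA, whose product carries reducing power into the thylakoid lumen for cytochrome assembly, stood at 0.65 (0.175, and 0.0465 with the block). By list, 2 of 3 NADH dehydrogenase-like complex genes, the 1 ribosomal protein gene, 1 of 2 Clp protease genes, 1 of 2 cytochrome assembly genes and 0 of 1 phage-type polymerase genes rose. The 4 not named above carry only a locus number in the annotation. The ribosomal protein gene AT1G64510 rose by 1.50 (adjusted p = 0.00238). The Clp protease gene AT1G09130 rose by 1.36 (0.0167) and the cytochrome assembly gene AT1G49380 by 1.50 (0.0201). The phage-type polymerase gene AT5G15700 averaged 115.5 ± 90.4 units in cop1-4 and 13.2 ± 8.17 units in wild type (SD, n = 3 each). Its wild type mean lay below the added offset of 24.5 units. Its change was 1.61 (0.112, and 0.0368 with the block), with −0.15 in replicate 1 and 2.5 in the other two. No sigma factor, polymerase-associated protein or nuclear acetyl-CoA carboxylase subunit of the lists was measured.

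The second comparison set seedlings with BBX22-GFPox against seedlings of the same mutant without it. No member was called in either direction by limma or with the replicate block. An unadjusted p under 0.05 was found for 0 of 36 members and for 1194 of the 15922 probe sets tested. Over all probe sets 0.283% were raised and 0.0188% lowered (1.04% and 0.258% with the block), so few calls of any kind were made. The median change was 0.10, against 0.00 over all probe sets, and single members ranged from −0.55 to 0.54. Class medians were 0.05 for ndh, −0.03 for rpo, 0.18 for rps, 0.27 for rpl, 0.13 for ycf and 0.10 for the single genes. With 1 array left out they ranged from −0.38 to 0.58 for ndh, −0.17 to 0.11 for rpo, 0.08 to 0.42 for rps, 0.06 to 0.54 for rpl, 0.00 to 0.26 for ycf and −0.23 to 0.40 for the single genes. The member intervals were wide enough to leave sizeable changes undetected. The narrowest 95% interval was that of ycf3 (−0.37 to 0.47), and that of ndhG ran from −1.24 to 1.85. In 2 members, rpl16 and rps18, all 3 cop1-4 BBX22-GFPox arrays lay above all 3 cop1-4 arrays (6.37% of all probe sets did so), and none showed the reverse order (4.99%). The rpl16 change was 0.40 (interval −0.06 to 0.86, adjusted p = 0.778). The ndhF signal was lower with the construct in 2 of 3 numbered pairs, with a change of −0.55 (−1.23 to 0.14). The largest positive change was that of rps19 at 0.54 (−0.05 to 1.13), and ycf4 stood at 0.22 (−0.50 to 0.94).

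With replicates 2 and 3 alone, ndhG and rps14 were called as raised with the construct, as were 12.7% of all probe sets. None was lowered, where 11.5% of all probe sets were. The rps14 gene (ArthCp020), which encodes ribosomal protein S14 and was singled out after its values were seen, read 46.9, 207 and 202 units in cop1-4 BBX22-GFPox, 278, 92.0 and 87.7 units in cop1-4 and 68.6, 48.2 and 57.4 units in wild type. The replicate 1 array was the lowest of its genotype with the construct and the highest in cop1-4. The difference between these genotypes was −2.08 in replicate 1, 0.99 in replicate 2 and 1.01 in replicate 3, and the change over all arrays was −0.03. Its adjusted p was 0.00299 in replicates 2 and 3 alone and 0.999 over all arrays.

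The third comparison set cop1-4 BBX22-GFPox against wild type. It shares its wild type arrays with the first comparison and its cop1-4 BBX22-GFPox arrays with the second, so the 3 are not independent. All 36 members had positive changes, with a median of 0.71 against −0.11 over all probe sets. Limma called 5 members, all raised. At an unadjusted p under 0.05 there were 10 of 36, where 5717 of the 15922 probe sets tested had one. The 5 are 13.9% of the members, where 9.8% of all probe sets were raised. None was lowered, against 11.7% of all probe sets, 21.8% with the block and 32.7% with replicates 2 and 3 alone. With the block 22 were raised (61.1%, against 18.9% of all probe sets), and with replicates 2 and 3 alone 29 were (80.6%, against 27.5%). In 16 members (44.4%) the arrays did not overlap wild type and lay above it, as in 19.2% of all probe sets, and in none did they lie below it (24.6%). Of the 33 photosynthesis genes 10 were raised, with a median of 0.94.

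The 5 raised members were ccsA (log2 change 1.39, adjusted p = 0.0299), ndhF (1.15, 0.0276), rps2 (0.83, 0.0326), rpl16 (0.76, 0.0299) and ycf3 (0.72, 0.0246). The ccsA signal averaged 12865 ± 5501 units in cop1-4 BBX22-GFPox and 4720.2 ± 1140.4 units in wild type (SD, n = 3 each). That of rpl16 averaged 3141 ± 244 units with the construct and 1848 ± 121 units in wild type. Each of the 5 lost its call without some arrays. Without cop1-4 BBX22-GFPox replicates 1, 2 and 3 the count of raised members was 3, 1 and 2. Of all probe sets 12.3%, 5.28% and 5.36% were raised in these fits. Without wild type replicates 1, 2 and 3 the count was 2, 0 and 1 (6.01%, 6.18% and 5.52% of all probe sets). Without cop1-4 replicate 1 it was 9 (14% of all probe sets). The highest adjusted p was 0.108 for rpl16 (without cop1-4 BBX22-GFPox replicate 3), 0.104 for rps2 (without wild type replicate 3), 0.102 for ccsA (without wild type replicate 2) and 0.0997 and 0.0983 for ndhF and ycf3 (without cop1-4 BBX22-GFPox replicate 2). Called only with the block were 7 further ndh genes, 4 rps genes, rpl32 and rpl33, ycf4, and accD, cemA and matK. By class, the block raised 8 of 10 ndh, 0 of 4 rpo, 5 of 8 rps, 3 of 7 rpl, both ycf and 4 of 5 single genes. It raised 18.9% of all probe sets. The rpo genes lay at 0.09 to 0.41.

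Of the 9 measured partner genes 7 rose in cop1-4 BBX22-GFPox against wild type, none fell, and none was called against cop1-4. Over all probe sets 9.8% were raised and 11.7% lowered against wild type, and 0.283% were raised against cop1-4. NdhL rose by 2.17 (adjusted p = 0.0191), NdhN by 2.04 (0.0324), CLPP4 by 1.52 (0.0144) and CcdA by 1.35 (0.0215). AT1G64510 rose by 1.47 (0.00276), AT1G09130 by 1.47 (0.0136) and AT1G49380 by 1.63 (0.0163). Not called were the phage-type polymerase gene AT5G15700 at 1.75 (0.0998, and 0.0298 with the block) and NdhS at 0.93 (0.379). The wild type mean of AT5G15700, 13.2 units, lay below the added offset of 24.5 units.

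**Figure D3:**
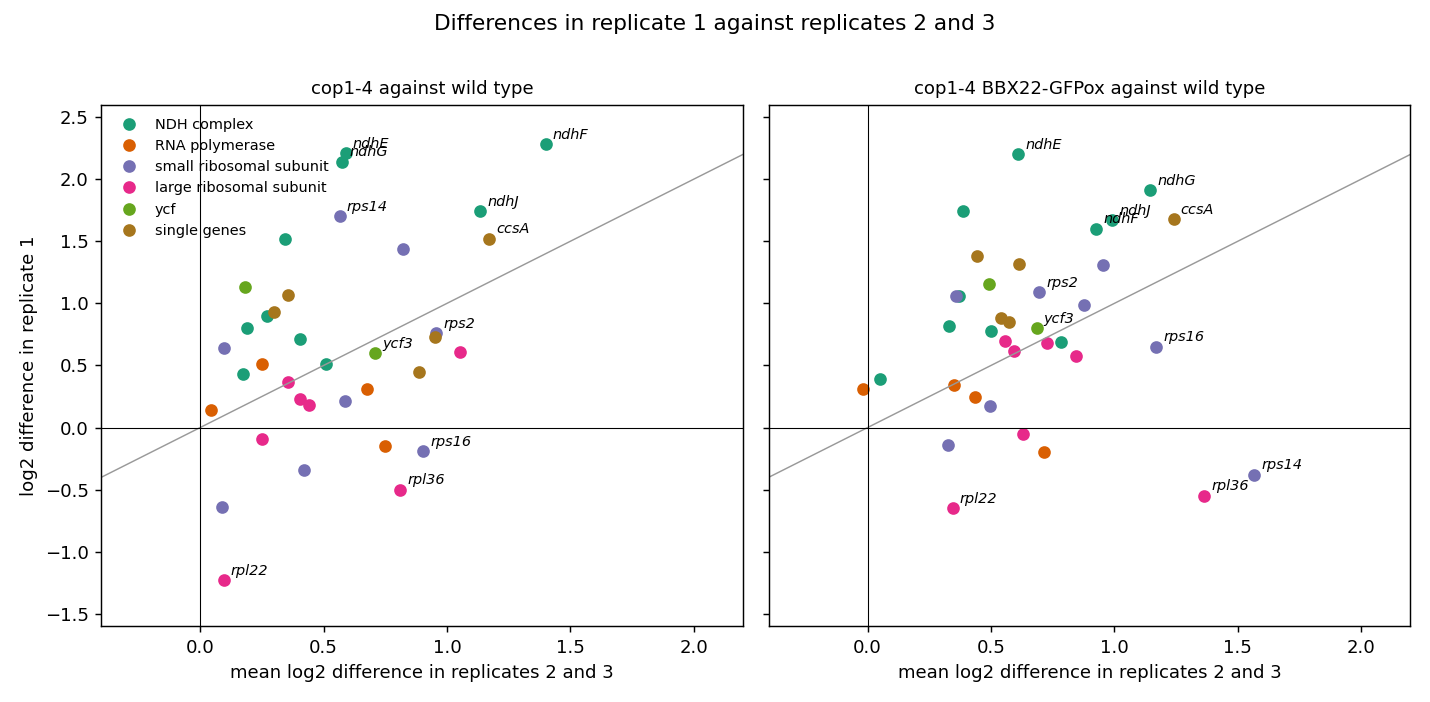
Log2 difference in replicate 1 (vertical axis) against the mean log2 difference in replicates 2 and 3 (horizontal axis) for the 36 genes, coloured by class, for each mutant genotype against wild type, with a line of equality. The ndhE point lies far above the line in the left panel (2.21 in replicate 1 and 0.59 in replicates 2 and 3), and rpl22 lies below it (−1.23 and 0.10).

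Replicate 1 differed from replicates 2 and 3 by class and by genotype. Over the 36 members, the log2 value in replicate 1 minus the mean of replicates 2 and 3 had a median of 0.72 in cop1-4 BBX22-GFPox, 0.60 in cop1-4 and 0.41 in wild type, against −0.04, −0.11 and −0.04 over all probe sets in the same order of genotypes. The 33 plastid photosynthesis genes had offsets of 0.70, 0.94 and 0.37. The ndh genes stood highest, at 1.27 in cop1-4 BBX22-GFPox, 1.33 in cop1-4 and 0.62 in wild type. For ndhE the offset was 1.90 with the construct, 1.94 in cop1-4 and 0.31 in wild type. The large subunit genes ran the other way in both cop1-4 genotypes, with medians of −0.44 in cop1-4 BBX22-GFPox and −0.25 in cop1-4, against 0.13 in wild type. Among them rpl36 stood at −1.48, −0.88 and 0.43. The differences from wild type in replicate 1 therefore spread wider than those in replicates 2 and 3, from −1.23 for rpl22 to 2.28 for ndhF in cop1-4. In the mean of replicates 2 and 3 all 36 members lay higher in cop1-4 than in wild type, while by single pair 29 did in replicate 1, 31 in replicate 2 and 33 in replicate 3. Of the 15922 probe sets tested, 7356 lay higher in the mean of replicates 2 and 3 and 7011 in replicate 1. The labels give no batch or scan information, and the origin of the replicate 1 offset was not tested.

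Along the plastid genome 29 of the 36 members fell into 9 clusters of genes known to be transcribed together in part, which were assembled from textbook knowledge. The other 7 (ccsA, matK, ndhF, rpl32, rps4, rps16 and ycf3), among them 3 of the 4 called in cop1-4, were placed in none. The cluster running from rps19 to rpoA held 7 measured members, 6 ribosomal protein genes and rpoA. Its members had a median change in cop1-4 of 0.17 (−0.35 to 0.55). Replicate 1 gave −0.34 and the other two 0.42, and none was called with or without the block. The ndhH cluster, with rps15 and 6 ndh genes, had a median of 0.51 (0.40 to 1.13), where replicate 1 gave 0.90 and the other two 0.51. With the block 5 of its 7 members were called, where 19.9% of all probe sets were raised. In the ndhC cluster the change was 0.26 for ndhC, 0.74 for ndhK and 1.34 for ndhJ, although the 3 genes lie next to each other. The polymerase cluster of rpoB, rpoC1 and rpoC2 had a median of 0.34.

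Some members lay beside photosynthesis genes in a cluster. Next to rps2, the ATP synthase subunit gene atpI was also raised in cop1-4 (0.96, adjusted p = 0.0162). The further genes of that cluster, atpH, atpF and atpA, stood at 0.63, 1.01 and 0.48 and were not called (adjusted p from 0.535 to 0.666), although the block raised atpF (0.0101). Next to rpl33 and rps18, which were not called (0.36 and 0.46), the photosystem I subunit gene psaJ rose by 1.02 (adjusted p = 0.00813). In the cluster from accD to petA, accD, ycf4 and cemA had changes of 0.51, 0.50 and 0.59 and the photosynthesis genes psaI and petA 0.95 and 0.64, none of them called without the block. With the construct the same 5 genes stood at 0.76, 0.72 and 0.85 and at 1.29 and 0.76 against wild type. The block called all 5, where it raised 18.9% of all probe sets.

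**Figure D4:**
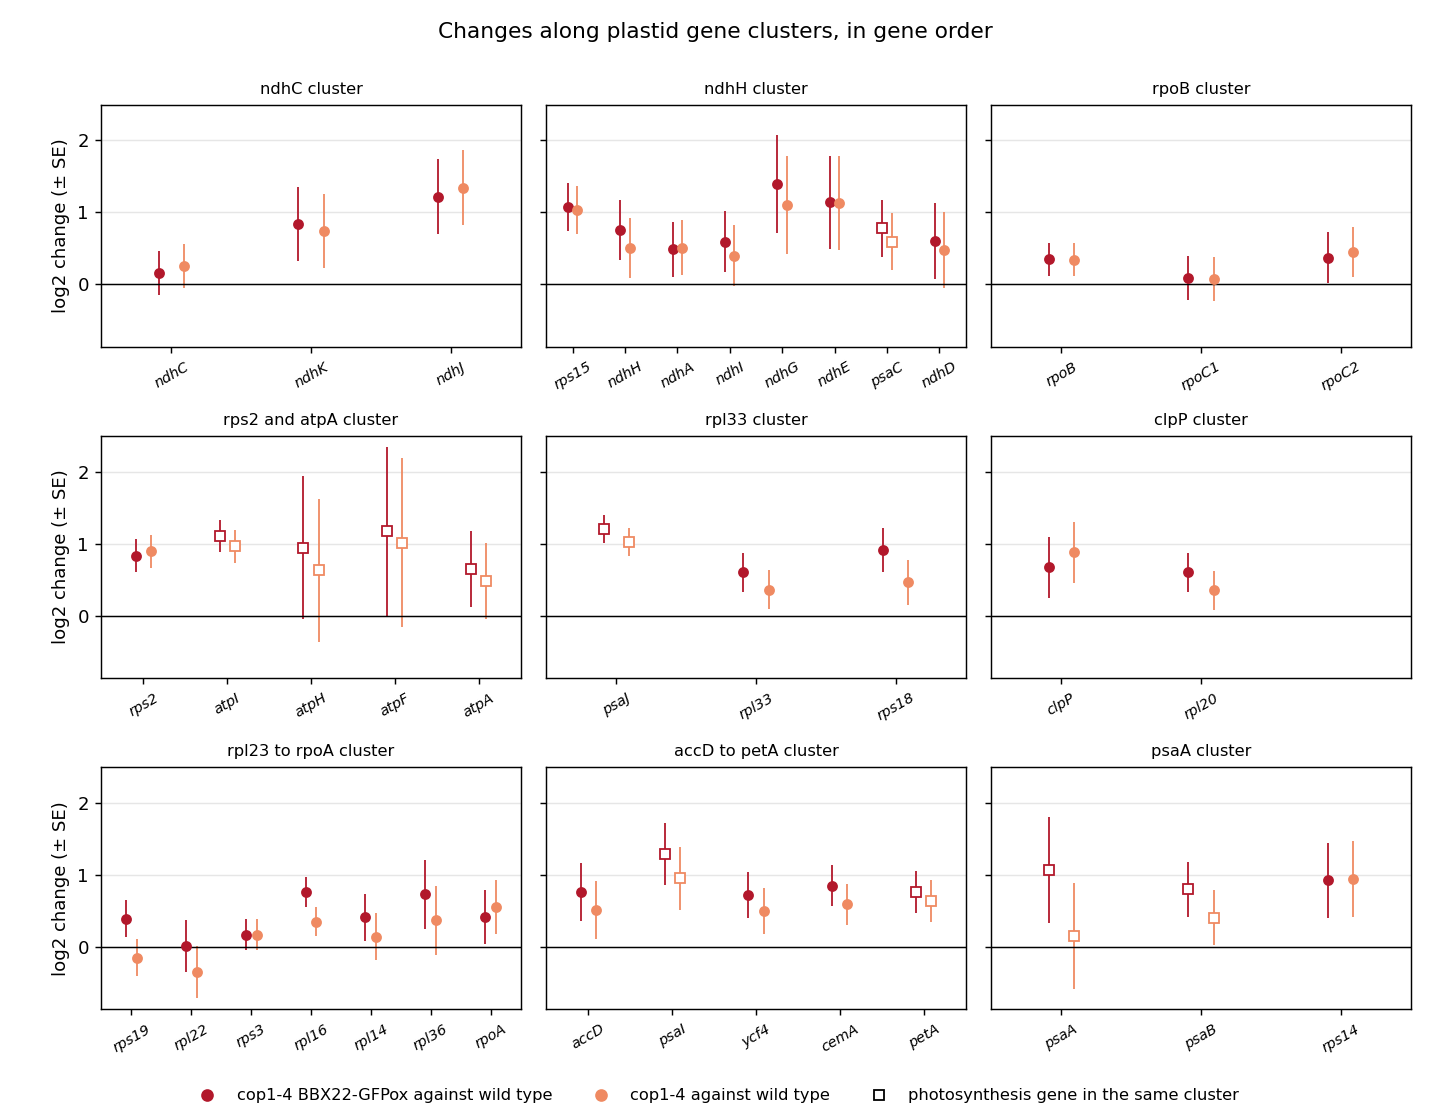
Log2 change with its standard error along 9 plastid gene clusters, with genes in genome order on the horizontal axis. Red symbols are cop1-4 BBX22-GFPox against wild type and orange symbols cop1-4 against wild type, and squares are photosynthesis genes of the same cluster. Within the ndhC cluster the points climb from 0.26 at ndhC to 1.34 at ndhJ in cop1-4, and the rpl23 to rpoA panel, whose measured genes run from rps19 to rpoA, holds the only points below 0 (rps19 and rpl22 in cop1-4).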

How the data were processed

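The deposited table holds linear probe set intensities. The submitters' processing notes name MAS5 as the tool by which the authors derived them, with version and target intensity not given in the sources used here. Names came from the platform annotation and from a TAIR10.1 gene table. Start positions in that gene table served to check the gene order of the clusters, and no sequences were used. Before log2 was taken, an offset of 24.5 units (the 20th percentile of the table) was added to each signal, so changes of low signals are understated. The 30% of probe sets with the lowest mean log2 values were left out. A model with 1 mean per genotype was fitted over the 9 arrays with limma 3.58.1 (lmFit and eBayes, trend on mean intensity) in R 4.3.3, and each comparison had its own Benjamini-Hochberg adjustment of two-sided p-values. The script was tested on simulated data. Whether the biological replicates were sown separately is not stated, so the p-values cover only the spread among these samples, and the number of arrays limits the precision.

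Arrays with the same replicate number deviated together from their genotype means in all 9 pairs (r = 0.375 to 0.806), and the block fit takes them as paired. Replicate 1 correlated with the other arrays of its genotype at 0.816 to 0.926, and those with each other at 0.982 to 0.989. Deviations of replicate 2 in one genotype and replicate 3 in another also correlated, at 0.337 to 0.739, so the numbers 2 and 3 are not shown to pair arrays.

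Given with every array were the rpo and single genes and, in each other class, the brightest member, the members of largest positive and negative change in cop1-4, the member of largest change with BBX22-GFPox and called members, 21 genes in all. The text adds ndhJ and rps14, chosen after their values were seen. Members, lists and clusters were chosen with earlier results of these data known. Alternatives were other offsets, filters, normalizations, the replicate block, replicate 1 as a batch, replicates 2 and 3 alone, array weights and leaving out each array.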

Additional observations from a re-analysis of the deposited data

How the results depend on the processing

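The count of raised members was 4 in cop1-4 against wild type and 5 in cop1-4 BBX22-GFPox against wild type. It was 14 and 22 with the replicate block, where 19.9% and 18.9% of all probe sets were raised. With replicates 2 and 3 alone it was 22 and 29 (28.7% and 27.5% of all probe sets). With replicate 1 as a batch term it was 15 and 24 (22.1% and 20.9%), and with array weights 17 and 20 (28% and 26.7%). Leaving out 1 array at a time gave 1 to 6 and 0 to 9 members. The share of all probe sets raised then ran from 6.11% to 17.2% and from 5.28% to 14%. Between cop1-4 BBX22-GFPox and cop1-4 the count of raised members was 0. It was 2 with replicates 2 and 3 alone (12.7% of all probe sets) and 1 with array weights (11.8%). Other offsets, filters and normalizations kept these counts within a factor of 1.5, and no setting called a lowered member.

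Over the single arrays left out, the median over all members ranged from 0.41 to 0.70 for cop1-4 against wild type, −0.10 to 0.32 for cop1-4 BBX22-GFPox against cop1-4 and 0.50 to 0.85 for cop1-4 BBX22-GFPox against wild type. Class medians ranged from 0.22 to 0.72 (rps), 0.10 to 0.47 (rpl) and 0.57 to 1.00 (single genes) in the first comparison. In the second they ranged from −0.38 to 0.58 (ndh), 0.06 to 0.54 (rpl) and −0.23 to 0.40 (single genes), and in the third from 0.16 to 0.44 (rpo) and 0.67 to 0.96 (rps). Median scaling moved the median change of all probe sets in cop1-4 against wild type from −0.11 to 0.01, turned its calls from 1795 raised and 2305 lowered to 2292 and 1736, and gave a member median of 0.63 and a single-gene median of 0.86. That single-gene median was 0.55 with quantile normalization and 0.88 with replicates 2 and 3 alone. The rps median against wild type in cop1-4 BBX22-GFPox was 0.70 with the larger offset, 0.78 with replicates 2 and 3 alone and 0.72 with array weights.

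No called member changed sign. Among uncalled members, quantile normalization turned rps3 (−0.14), rps4 (−0.08) and ndhC (−0.06) negative in cop1-4, and rps3 (−0.09), rpl22 (−0.19) and ndhC (−0.10) in cop1-4 BBX22-GFPox against wild type. With replicates 2 and 3 alone and with array weights, rpl22 (0.10 and 0.05) and rps19 (0.09 and 0.02) turned positive in cop1-4, rpoC1 turned negative in cop1-4 BBX22-GFPox against wild type (−0.02 and −0.05), and rps14 turned positive between the cop1-4 genotypes (1.00 and 0.93), where each of these settings turned the sign of 4 members in all, and quantile normalization and median scaling of 3 each. Leaving out single arrays changed signs in cop1-4 against wild type for ndhI (range −0.02 to 0.64), rpl14 (−0.19 to 0.38), rpl22 (−0.59 to 0.03), rpoC1 (−0.12 to 0.25) and rps4 (−0.07 to 0.47). It did so for ndhC (−0.09 to 0.34), rpl22 (−0.20 to 0.28) and rpoC1 (−0.18 to 0.25) in cop1-4 BBX22-GFPox against wild type, and for 26 of 36 members between the cop1-4 genotypes, among them rps14 (−0.32 to 0.53) and ycf4 (−0.03 to 0.54). The cause of these changes was not tested.

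A filter at the 50th percentile left 33 members tested, without ndhF, rpoB and rps14. Mitochondrion-encoded genes, meant for comparison, could not be matched and were not run. The array count, 3 per genotype, limits what can be called.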
